A study of Homo sapiens with 24 samples.

Results

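The genes of major histocompatibility complex (MHC) class II antigen presentation and their coactivator CIITA were examined in Nalm6, an established human cell line of B-cell precursor acute lymphoblastic leukemia. All rows of the count table whose RefSeq accession belonged to HLA-DRA, HLA-DRB1, HLA-DPA1, HLA-DPB1, HLA-DMA, HLA-DMB, HLA-DOA, HLA-DOB, CD74 or CIITA were taken. CD74 had 3 accessions and CIITA had 4, so that 2 of the 10 named genes and 7 of the 64519 accessions in the table were measured. The other 8 named genes, all in the HLA family, were not analysed here. Of the 7 accessions, 3 had a read in any library, and 1, the CD74 accession NM_001025159, was among the 10167 accessions that passed the filter for testing (more than 1 CPM, reads scaled to library size, in at least 2 libraries).

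Nalm6 cells carried lentiviral shRNA against G9a (shG9a), GLP (shGLP) or HP1γ (shHP1γ), or a non-specific sequence (shNS), and were puromycin-selected populations, so the controls also carried a lentivirus. G9a and GLP are partner enzymes that methylate lysine 9 of histone H3, and HP1γ is a protein that binds this mark. Each population was treated for 8 h with 100 nM dexamethasone (dex), a synthetic glucocorticoid, or with an equal volume of its vehicle ethanol. The 24 libraries were made from RNA of 3 biological replicates of each of the 8 conditions, which the extraction protocol in the labels places on different days.

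MHC class II molecules are pairs of α and β chains that present peptides from internalized proteins to CD4+ T cells. The invariant chain, encoded by CD74, fills their peptide groove and guides them to endosomes, where proteases trim it to a short fragment. HLA-DM exchanges this fragment for peptide, and HLA-DO restrains that exchange. CIITA does not bind DNA itself: it is recruited by RFX, CREB and NF-Y factors bound at the X and Y boxes of class II promoters, and mature B cells express it without the need for interferon-γ.

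CD74 lies on the minus strand of chromosome 5 (GRCh37, 149781200 to 149792532), and CIITA on the plus strand of chromosome 16 (10960079 to 11036878). The promoters of these genes were compared for the boxes through which CIITA is recruited. In the RefSeq promoter table (GRCh38.p14), 8 of the 10 named genes had an entry, and HLA-DRA and CIITA had none. The 250 bases before each start were searched on both strands for an X box core, which is GNAAC, then 3 bases of any kind, then TG, and for the Y box, ATTGG, which on the other strand reads CCAAT. The X core was found in 8.94% of the 35116 promoters of the table and in 3 of the 8 class II genes, and the Y box in 32.0% of promoters and in 7 of the 8 genes. Both, with the Y box 15 to 30 bases after the X core, were found in 0.296% of promoters and in 2 of the 8 genes, CD74 and HLA-DRB1. These windows are shown on the minus strand, the coding strand of both genes, with the X core and the Y box in capitals.
CD74, chr5:150412951-150412998: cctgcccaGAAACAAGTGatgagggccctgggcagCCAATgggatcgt
HLA-DRB1, chr6:32589882-32589934: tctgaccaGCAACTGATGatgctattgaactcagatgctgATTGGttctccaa

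In CD74 the X core began 80 bases before the start and 17 bases lay between the boxes. In HLA-DRB1 the X core began 78 bases before the start and 22 bases lay between them. The Y box of HLA-DRB1 reads ATTGG on the coding strand, whereas that of CD74 reads CCAAT, so the boxes face opposite ways. These matches describe letters only, and binding at them was not measured.

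The levels of CD74 and CIITA rested on few reads. CD74 NM_001025159 received 120 to 202 reads per library, with a mean CPM of 13.8 over the 24 libraries after scaling by upper quartile factors. The other accessions of CD74, NM_001025158 and NM_004355, were at 0 in all 24 libraries. CIITA NM_001286403 received 0 to 12 reads per library and 140 reads in all. CIITA NM_001286402 received 1 read in 1 library, and NM_000246 and NR_104444 were at 0 throughout. In libraries of 9289533 to 14387770 counts, with a median of 11132064.5, a count of 0 allows up to 3 reads, which is 0.216 to 0.317 CPM. These limits cover counting error only.

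The 0 counts of single accessions had a counterpart in the whole table. Of the 48047 accessions of genes with 2 or more accessions, 73.9% were at 0 in every library, against 26.3% of the 15698 accessions of genes with 1. Among 7939 expressed genes with 2 or more accessions, 6654 (83.8%) had at least 1 accession at 0 in every library. How a read that fits several accessions was counted is not given in the sources used here, so the values below are reads assigned to 1 accession and not the level of the whole gene.

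NM_001025159 is the RefSeq accession of the long form of the invariant chain, whose additional exon encodes a thyroglobulin-type domain known to inhibit cathepsin L. In the GENCODE v44 annotation of GRCh37, CD74 had 3 coding models. CD74-201 had 9 exons and 888 coding bases, CD74-202 had 8 exons and 696 coding bases, and CD74-203 had 6 exons and 480 coding bases. Of the exonic bases of CD74-201, 333 were in no other coding model, against 0 for CD74-202 and 2 for CD74-203. Exon 7 of CD74-201, at chr5:149782684-149782875, was the 1 exon that no other coding model overlapped, and all of its 192 bases were coding. Its sequence is given because it separates the long form from the others, with the exon in capitals between 15 bases of intron on each side.
CD74 exon 7: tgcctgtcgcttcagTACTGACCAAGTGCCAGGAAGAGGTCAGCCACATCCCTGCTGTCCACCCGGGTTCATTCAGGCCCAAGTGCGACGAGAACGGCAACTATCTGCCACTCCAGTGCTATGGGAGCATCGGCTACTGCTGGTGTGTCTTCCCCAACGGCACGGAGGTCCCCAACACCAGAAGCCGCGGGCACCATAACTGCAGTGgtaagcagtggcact

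The exon is preceded by AG and followed by GT, the usual ends of introns. Reads over single exons were not analysed here, so the share of CD74 reads that lie in this exon was not tested.

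**Figure D1:**
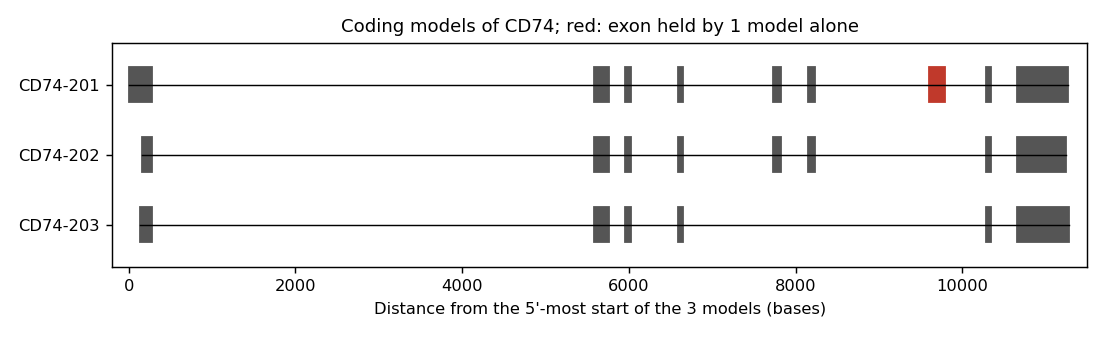
Coding models of CD74 in the GENCODE annotation of GRCh37, drawn to scale 5′ to 3′ by distance in bases from the outermost start. Boxes are exons and lines are introns. The red box is exon 7 of CD74-201, 192 bases long, which neither CD74-202 nor CD74-203 holds.

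Before the levels were compared, the depletion and the cell identity were checked. EHMT1 NM_001354259, which encodes GLP, had 18 to 34 reads in the 6 shGLP libraries and 29 to 50 in the 6 shNS libraries. CBX3 NM_016587, which encodes HP1γ, had 18 to 38 reads in shHP1γ cells and 39 to 49 in shNS cells. Within a treatment neither difference passed the edgeR test, with adjusted p from 0.0923 to 0.410. Over both treatments EHMT1 was lower in shGLP than in shNS cells by −0.51 (adjusted p = 0.0255) and CBX3 NM_016587 lower in shHP1γ cells by −0.55 (adjusted p = 0.0231), where 10.0% and 10.0% of all tested transcripts were called. The call of EHMT1 was lost without any 1 replicate (adjusted p from 0.0555 to 0.374), without the block (0.0656), with DESeq2 (0.0531), and without shGLP dex replicate 1 or 2, shGLP ethanol replicate 2, shNS dex replicate 2 or 3 or shNS ethanol replicate 2 (0.0538 to 0.0889). That of CBX3 was lost without any 1 replicate (0.0951 to 0.129) and without shHP1γ dex replicate 1, shHP1γ ethanol replicate 2 or 3, shNS dex replicate 2 or shNS ethanol replicate 1 or 2 (0.0508 to 0.0772). A further accession of CBX3, NM_007276, was not called (−0.23, adjusted p = 0.479, edgeR). EHMT2, which encodes G9a, was not analysed here, so the shG9a label could not be checked in these counts. The study itself reports, from immunoblots and quantitative PCR of the cells it sequenced, efficient loss of the protein and mRNA of each target. Of 12 B-cell precursor markers, RAG1, VPREB3, IGLL1, MME and CD79A passed the filter, with summed levels of 1501 to 3105 CPM. CD79B and DNTT were at 0, and none of the 6 T cell markers had more than 3 reads. In RNA from whole populations, fewer cells that express a gene and less RNA per cell cannot be told apart.

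The level of CD74 NM_001025159 was close in all 8 conditions. Replicates 1, 2 and 3 of ethanol-treated shNS cells had 12.2, 11.4 and 13.6 CPM, and those of dex-treated shNS cells had 15.1, 14.2 and 15.5 CPM. All 3 dex libraries of CD74 lay above all 3 ethanol libraries in this population. In shG9a cells the values were 11.7, 11.5 and 10.2 CPM with ethanol and 14.8, 9.70 and 13.4 CPM with dex. These groups overlapped, because replicate 2 with dex was the lowest of all 24 libraries. In shGLP cells CD74 was at 13.7, 14.8 and 13.6 CPM with ethanol and at 14.3, 18.2 and 15 CPM with dex. The groups overlapped here as well, and replicate 2 with dex was the highest of all libraries. In shHP1γ cells CD74 was at 13.5, 14.6 and 13.4 CPM with ethanol and at 15.3, 15.1 and 16.9 CPM with dex, with no overlap.

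Ordered by group mean, CD74 ran from 11.1 ± 0.838 CPM (SD, n = 3) in ethanol-treated shG9a cells through 12.4 ± 1.10 in ethanol-treated shNS cells and 12.6 ± 2.62 in dex-treated shG9a cells. It was 13.8 ± 0.667 in shHP1γ and 14.04 ± 0.633 in shGLP cells with ethanol. The highest means were 14.9 ± 0.679 in shNS, 15.8 ± 0.991 in shHP1γ and 15.8 ± 2.11 in shGLP cells, all with dex. Of the 7 gaps between neighbours in this order, 2 were larger than the larger SD of the pair: that between shG9a and shNS cells with ethanol, and that between shGLP cells with ethanol and shNS cells with dex. The coefficient of variation of CD74 within groups ran from 4.51% to 20.7% with a median of 6.90%, near the counting error of 7.04% to 9.13% that 202 and 120 reads carry.

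**Figure D2:**
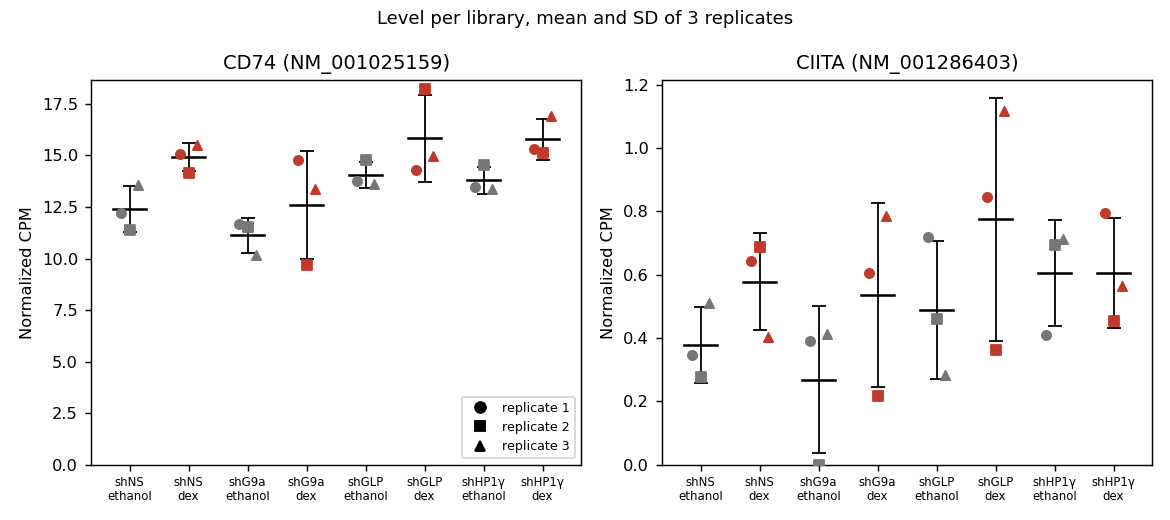
Normalized CPM of CD74 NM_001025159 (left) and CIITA NM_001286403 (right) in each library, by population and treatment, on linear axes that start at 0. Symbols mark replicates 1 to 3, ethanol is grey and dex is red, and the bars give the mean and SD of 3 replicates. CD74 lies between 9.70 and 18.2 CPM in every library, and CIITA exceeds 1 CPM in 1 library.

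The response to dex was then tested in each population. CD74 had a log2 fold change of 0.27 ± 0.13 (SE) in shNS cells, 0.17 ± 0.14 in shG9a cells, 0.18 ± 0.13 in shGLP cells and 0.19 ± 0.13 in shHP1γ cells. None passed the threshold (adjusted p = 0.258, 0.512, 0.617 and 0.584, quasi-likelihood F test of edgeR, Benjamini-Hochberg adjustment over 10167 transcripts). For comparison, 9.95% of all tested transcripts were called in shNS cells, 6.24% in shG9a, 3.29% in shGLP and 3.22% in shHP1γ cells. The interactions, which ask whether the dex response differed from that of shNS cells, were −0.09 ± 0.19 for shG9a, −0.09 ± 0.19 for shGLP and −0.07 ± 0.19 for shHP1γ, with adjusted p of 0.945, 1 and 1. In these interactions 0.0885%, 0.118% and 0.0197% of all transcripts were called.

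Depletion was compared with shNS within each treatment, and these comparisons share the shNS libraries. With ethanol, CD74 had log2 fold changes of −0.16 ± 0.14 in shG9a, 0.18 ± 0.13 in shGLP and 0.15 ± 0.13 in shHP1γ cells (adjusted p = 0.671, 0.668 and 0.689, edgeR). With dex the values were −0.25 ± 0.13, 0.09 ± 0.13 and 0.08 ± 0.13 (adjusted p = 0.260, 0.822 and 0.852, edgeR). The shares of all transcripts called were 3.73%, 3.61% and 2.91% with ethanol and 8.80%, 5.77% and 4.09% with dex. CD74 was thus called in 0 of the 13 comparisons within a population or treatment, also in 0 at an unadjusted p under 0.05, and in 0 by DESeq2 or by limma-voom. A p above the threshold does not show that the levels were equal: with an SE of 0.13, differences of the size seen here did not pass with 3 libraries per group.

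Averages over populations or treatments, chosen after these values had been seen, use more libraries per comparison. Over the 4 populations, CD74 was higher with dex than with ethanol by 0.20 ± 0.067 on the log2 scale, or 1.15-fold, with an adjusted p of 0.0289 (edgeR), in a comparison in which 23.8% of all transcripts were called. The direction held in 11 of 12 pairs of libraries with the same population and replicate number, the exception being replicate 2 of shG9a cells. With dex responses averaged within replicates, 3 of 3 were positive, for which an exact two-sided sign-flip permutation test gives p = 0.25, the smallest value that 3 replicates allow. The call was lost without replicate 1 (adjusted p = 0.120) or replicate 3 (0.286), and when no filter on low counts was used (0.140). It was also lost without any 1 of 8 single libraries, with adjusted p from 0.0503 to 0.0728 in edgeR: replicate 1 with dex or 3 with ethanol of shG9a, 2 with dex or 3 with ethanol of shGLP, 3 with dex or 3 with ethanol of shHP1γ, and 3 with dex or 2 with ethanol of shNS.

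CD74 was lower in shG9a than in shGLP cells over both treatments. The log2 difference was −0.34 ± 0.095 (0.790-fold, adjusted p = 0.0157, edgeR), lower in 5 of 6 pairs of matched libraries, where 15.7% of all transcripts were called. These pairs are both treatments of the same 3 replicates and are not independent. With differences averaged within replicates, 3 of 3 were negative (p = 0.25, exact two-sided sign-flip permutation test). The call was lost without replicate 2 (−0.19, adjusted p = 0.259), without replicate 3 (−0.35, 0.140), without filtering (0.0701) and in a fit of these groups alone (0.0649). It was further lost without shG9a ethanol replicate 3 (0.0593), shGLP dex replicate 2 (0.0759) or shGLP ethanol replicate 2 (0.0501). The range of CD74 over the 6 libraries of each population was 9.70 to 14.8 CPM in shG9a, with a median of 11.6, and 13.6 to 18.2 CPM in shGLP, with a median of 14.5.

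CD74 was likewise lower in shG9a than in shHP1γ cells, by −0.32 ± 0.095 (0.8004-fold, adjusted p = 0.0234, edgeR) and in 6 of 6 pairs, where 15.1% of all transcripts were called. These pairs too come from only 3 replicates. Differences averaged within replicates were negative in 3 of 3 (p = 0.25, exact two-sided sign-flip permutation test). The 6 shHP1γ libraries lay between 13.4 and 16.9 CPM, with a median of 14.8. This call was lost without replicate 2 (−0.26, adjusted p = 0.1003), without replicate 3 (−0.30, 0.200), without filtering (−0.25, 0.196) and in a fit of these groups alone (0.0881). It was also lost without shG9a dex replicate 2 (−0.23, 0.0622), shG9a ethanol replicate 3 (0.0749), shHP1γ dex replicate 3 (0.0570) or shHP1γ ethanol replicate 2 (0.0634). The difference between shGLP and shHP1γ was 0.02 ± 0.094 (adjusted p = 0.948), in a comparison with 10.7% of transcripts called.

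Against shNS over both treatments, none of the depletions moved CD74 past the threshold. The log2 differences were −0.20 ± 0.095 for shG9a, 0.14 ± 0.094 for shGLP and 0.12 ± 0.094 for shHP1γ (adjusted p = 0.170, 0.455 and 0.518, edgeR). In these comparisons 13.6%, 10.0% and 10.0% of all transcripts were called. CD74 was lower in shG9a than in shNS in 5 of 6 matched pairs, which come from 3 replicates. Averaged within replicates, these differences gave p = 0.25 in the exact two-sided sign-flip permutation test. The 6 shNS libraries, from 11.4 to 15.5 CPM, overlapped the libraries of each of the 3 depleted populations.

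**Figure D3:**
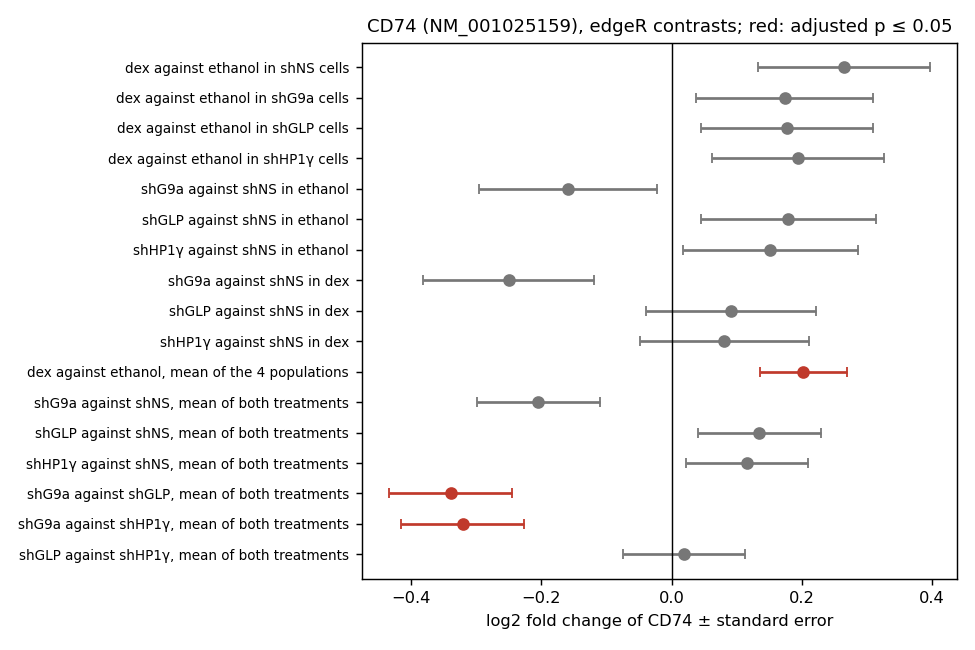
Log2 fold change of CD74 NM_001025159 (x axis, points) with its standard error (bars) in 17 edgeR comparisons, named on the y axis. Red marks an adjusted p of at most 0.05. The 3 red points are the mean response to dex at 0.20 and the differences of shG9a from shGLP and shHP1γ at −0.34 and −0.32, and none of the comparisons within a treatment or population is red.

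CIITA NM_001286403 was too low for the filter, being over 1 CPM in 1 of 24 libraries. With ethanol, replicates 1, 2 and 3 had 4, 3 and 6 reads in shNS, 4, 0 and 5 in shG9a, 7, 5 and 3 in shGLP and 4, 7 and 8 in shHP1γ cells. With dex the reads were 7, 8 and 5 in shNS, 7, 3 and 9 in shG9a, 8, 4 and 12 in shGLP and 9, 6 and 6 in shHP1γ cells. In all, the 12 ethanol libraries held 56 reads and the 12 dex libraries 84, and the ranges of the treatments overlapped in every population. After scaling, the CPM of CIITA was higher with dex in 8 of 12 matched pairs.

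In a fit of all accessions without a filter, the mean response of CIITA to dex was 0.52 ± 0.27 on the log2 scale (unadjusted p = 0.0517, adjusted p = 0.310, edgeR), where 9.34% of 24375 transcripts were called. Its log2 differences between shG9a and shGLP, −0.67 ± 0.39, and between shG9a and shHP1γ, −0.63 ± 0.38, did not pass either (adjusted p = 0.516 and 0.533, edgeR). The first of these comparisons called 5.71% of transcripts. The coefficient of variation of CIITA within groups was 26.4% to 86.7%, and counting alone gives 41.4% per library at its mean of 5.83 reads. These are errors of single libraries, and the size of change that the averaged comparisons could detect was not tested.

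The other class II genes with reads were under the filter as well. HLA-DRB5 NM_002125, a second DR β chain, had 2 to 14 reads per library: 25 over the 6 shNS libraries, 22 in shG9a, 42 in shGLP and 42 in shHP1γ. HLA-DQA1 NM_002122, the DQ α chain, had 0 to 7 reads per library, with 13 in shNS, 10 in shG9a, 20 in shGLP and 18 in shHP1γ. HLA-DQB1 NM_001243961 had 5 reads in all. With ethanol alone the sums in shG9a lay above those in shNS, with 14 against 9 reads of HLA-DRB5 and 7 against 3 of HLA-DQA1. In the fit without a filter, the log2 difference between shG9a and shGLP was −1.10 ± 0.40 for HLA-DRB5 and −1.20 ± 0.62 for HLA-DQA1 (adjusted p = 0.0873 and 0.389, edgeR), neither of which passed. HLA-DRB genes are near copies of each other, so reads of HLA-DRB5 may be shared with its paralogs.

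The pathway around the class II genes was described with a list of 69 genes, of which 53 had a row and 27 passed the filter, with 29 transcripts. It covers other class II genes, the RFX, CREB and NF-Y factors, coactivators and regulators of CIITA, class II processing, class I and costimulation. With dex in shNS cells, 4 of the 29 transcripts rose and 4 fell, so that 27.6% of the list was called against 9.95% of all tested transcripts, and the median log2 fold change was 0.05 against −0.03. Without the replicate block, 3 were called instead of 8. In shG9a cells 1 transcript (3.45%) fell, and in shGLP and shHP1γ cells edgeR called 0. In these populations 6.24%, 3.29% and 3.22% of all tested transcripts were called. At an unadjusted p under 0.05 in edgeR, the list had 7 transcripts in shGLP and 5 in shHP1γ cells, against 1453 and 1380 of all 10167. DESeq2 called 1 in shGLP and 0 in shHP1γ cells, and limma-voom 0 in both.

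Among factors that bind the class II promoter, RFXAP NM_000538, a subunit of the RFX complex, was at 59.9 to 86.9 CPM and RFXANK NM_003721 at 0.735 to 2.59 CPM. RFX5 NM_000449 had at most 2 reads. None of the 3 tested transcripts of this group was called in any comparison within a treatment or population. RFXAP fell by 0.17 ± 0.044 on the log2 scale over the dex responses of the 4 populations (adjusted p = 0.00743, edgeR), a call lost without replicate 2 (0.0648) or 3 (0.157).

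Of the coactivators, the arginine methyltransferase gene CARM1 NM_199141 fell by 0.30 ± 0.061 with dex in shNS cells (adjusted p = 0.00158, edgeR), a call that was lost without replicate 3 (adjusted p = 0.111) or without the replicate block (0.126). Against shNS with dex, CARM1 was higher by 0.22 in shG9a and 0.26 in shHP1γ cells (adjusted p = 0.0245 and 0.0124, edgeR). Both calls of this pair were lost without replicate 2 (0.0567 and 0.151) or 3 (0.225 and 0.218), without the block (0.305 and 0.332), without a filter (0.142 and 0.446), in fits of the compared groups alone (0.136 and 0.0855) and without shNS dex replicate 2 (0.153 and 0.108). That in shG9a cells was also lost without shG9a dex replicate 1 or 3 or shNS dex replicate 3 (0.0582 to 0.0911), and that in shHP1γ cells without shHP1γ dex replicate 2 (0.0962).

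The acetyltransferase gene KAT2B NM_003884 was lower in shHP1γ than in shNS cells, with log2 fold changes of −0.36 with ethanol and −0.39 with dex (adjusted p = 0.00283 and 5.9e-04, edgeR). The ethanol call was lost without replicate 1 (0.0746) or 3 (0.162), and both were lost without the block (0.135 and 0.0534) and in fits of the compared groups alone (0.0741 and 0.0545). KAT2B was also lower in shG9a cells with dex, by −0.27 (adjusted p = 0.0111, edgeR), a call lost without any 1 replicate (0.0894 to 0.120), without shNS dex replicate 2 (0.0755), without the block (0.186), without a filter (0.156) and in a fit of these groups alone (0.165).

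ZXDC NM_001040653 encodes a zinc finger protein that binds CIITA. It was higher with dex in shNS cells by 0.31 ± 0.092 and lower in shG9a than in shNS cells with dex by −0.36 ± 0.091 (adjusted p = 0.0328 and 0.0149, edgeR). The first call was lost without replicate 2 (0.222) or 3 (0.298), without a filter (0.224), without the block (0.207), and without dex replicate 1 or 2 or ethanol replicate 2 or 3 of shNS (0.0508 to 0.223). The second was lost without replicate 2 (0.329) or 3 (0.133), without shG9a dex replicate 2 (0.0797) or shNS dex replicate 2 (0.132), without the block (0.140) and in a fit of these groups alone (0.173).

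Of the regulators of CIITA, IRF8 NM_002163, a B-cell and myeloid transcription factor, was higher in shGLP than in shNS cells. Its level was 25.1 ± 2.87 CPM (SD, n = 3) with ethanol and 22.1 ± 0.826 with dex in shGLP, against 10.3 ± 1.87 and 9.65 ± 1.24 in shNS cells. The 6 shGLP libraries, from 21.3 to 28.4 CPM, all lay above the 6 shNS libraries, which ended at 12.5 CPM. The log2 fold changes were 1.27 ± 0.16 and 1.20 ± 0.16 (adjusted p = 1.8e-05 and 3.0e-05, edgeR), and both calls held in every alternative fit and with any replicate or library of the comparison left out. CD74 in the same shGLP cells was not called against shNS.

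The summed levels of marker lists differed between the populations, and these differences were not tested. The B-cell precursor list had medians of 2945 CPM with ethanol and 3001 with dex in shGLP cells and of 2651 and 2386 in shG9a cells, against 2011 and 1920 in shNS and 1719 and 1538 in shHP1γ cells. These sums were made up mostly of RAG1, at 1071 to 2812 CPM over all libraries, with VPREB3 next at 107 to 434 CPM. They thus describe RAG1 more than the list as a whole. Of 6 monocyte or macrophage genes, LYZ and MPO passed the filter, and the summed level of the list was 26.6 to 34.1 CPM with ethanol and 20.5 to 30.3 CPM with dex in shGLP cells. In the other groups the sum had medians of 3.40 to 7.13 CPM. LYZ itself was at 19.4 to 31.2 CPM in shGLP and at 1.61 to 5.64 CPM in shNS cells, whereas CSF1R and ITGAM were at 0 in all libraries and CD14 and CD68 had at most 4 and 3 reads. Of 6 dendritic cell genes, 1, CD1C, passed the filter, and the list summed to 0.859 to 4.68 CPM in all libraries. The part of these differences in the levels of IRF8 and CD74 was not tested.

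IRF4 NR_046000, an accession of a B-cell transcription factor gene, had 2 to 18 reads per library and was higher with dex in shNS cells by 1.86 ± 0.52 (adjusted p = 0.0220, edgeR). This call was lost without replicate 1 (0.0895) or 3 (0.325), and without dex replicate 2 or 3 or ethanol replicate 1 or 3 of shNS (0.0508 to 0.137). IRF2 NM_002199 encodes an interferon regulatory factor that binds the interferon-responsive promoter of CIITA. It was higher in shGLP than in shNS cells with dex by 0.33 ± 0.064 (adjusted p = 0.00174, edgeR), a call lost without a filter (0.0665) and held in the other alternatives and with any replicate or library left out. IRF2 was also called with dex in shNS cells (−0.23) and, with dex, in shG9a (0.23) and shHP1γ cells (0.22), with adjusted p of 0.0203, 0.0242 and 0.0493 in edgeR. The first of these was lost without replicate 1 (0.105) or 3 (0.317), without dex replicate 2 or 3 or ethanol replicate 1 or 3 of shNS (0.0727 to 0.109), with DESeq2 (0.0559) or TMM scaling (0.0681), without a filter (0.0890) and without the block (0.173). The second was lost without replicate 2 (0.267) or 3 (0.136), without shG9a dex replicate 2 or shNS dex replicate 2 or 3 (0.0893 to 0.156), without a filter (0.171), without the block (0.177) and in a fit of these groups alone (0.177). The third was lost without any 1 replicate (0.112 to 0.337), without any 1 of its 6 libraries (0.0791 to 0.173), with DESeq2 (0.0971), limma-voom (0.0549) or TMM scaling (0.0867), without a filter (0.853), without the block (0.320) and in a fit of these groups alone (0.123).

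PRDM1 NM_001198, which encodes a repressor of CIITA in plasma cells, was under the filter, with 22 reads in the 12 ethanol and 58 in the 12 dex libraries. The reads with ethanol and dex were 4 and 21 in shNS, 6 and 11 in shG9a, 8 and 10 in shGLP and 4 and 16 in shHP1γ cells. In the fit without a filter, where 9.34% of transcripts were called, the mean response of PRDM1 to dex was 1.22 ± 0.38 (adjusted p = 0.0192, edgeR), and the call was lost without replicate 1 (0.272) or 2 (0.188). PAX5 NR_104000, an accession of another B-cell factor, had at most 6 reads.

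Of the processing genes, IFI30 NM_006332, the lysosomal thiol reductase that opens disulfide bonds of antigens, fell by 0.57 ± 0.14 with dex in shNS cells (adjusted p = 0.0101, edgeR). That call was lost without replicate 3 (adjusted p = 0.214), dex replicate 2 (0.0645) or ethanol replicate 1 (0.0889). IFI30 was higher in shGLP than in shNS cells with dex by 0.53 ± 0.14 (adjusted p = 0.0264, edgeR), a call lost without replicate 2 (0.0935) or 3 (0.271), without the block (0.0867), and without shGLP dex replicate 1 or 2 or any 1 of the 3 shNS dex libraries (0.0542 to 0.156).

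CTSD NM_001909, the protease cathepsin D, was lower in shG9a than in shNS cells by −0.29 ± 0.059 with ethanol and −0.38 ± 0.059 with dex (adjusted p = 0.00501 and 1.8e-04, edgeR). The ethanol call of CTSD was lost without replicate 1 (0.0633) or 3 (0.167), and the dex call in a fit of these groups alone (0.0599). CTSD was also lower in shGLP than in shNS cells with dex, by −0.24 (adjusted p = 0.0118, edgeR), and higher with dex in shNS cells, by 0.21 (adjusted p = 0.0214, edgeR). The shGLP call was lost without replicate 1 (0.146) or 3 (0.263), without shGLP dex replicate 3 (0.0728) or shNS dex replicate 1 (0.0852) and without the block (0.0590). The call with dex in shNS cells was lost without replicate 1 (0.217) or 3 (0.218), without dex or ethanol replicate 1 or 3 of shNS (0.0504 to 0.135), without a filter (0.354) and without the block (0.0873).

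MARCHF8 NM_145021 encodes a ubiquitin ligase of the family that marks class II molecules for degradation. It was lower in shG9a than in shNS cells with dex by −0.59 ± 0.17 (adjusted p = 0.0327, edgeR), a call lost without any 1 replicate (0.0615 to 0.331), without shG9a dex replicate 2 or any 1 of the 3 shNS dex libraries (0.0612 to 0.174), without the block (0.0770) and in a fit of these groups alone (0.135). Another transcript of MARCHF8, with 5 to 25 reads per library, also passed the filter and was not called in this comparison.

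Of the class I genes, which NLRC5 rather than CIITA chiefly governs, PSMB10 NM_002801 encodes a subunit of the immunoproteasome and B2M NM_004048 the light chain of class I molecules. PSMB10 was at 184 ± 8.51 CPM (SD, n = 3) in ethanol-treated shNS cells and at 134 ± 20.03 in shG9a cells. Its log2 fold change in shG9a cells was −0.47 ± 0.066 with ethanol and −0.47 ± 0.066 with dex (adjusted p = 1.3e-04 and 6.4e-05, edgeR). The ethanol call was lost without replicate 3 (adjusted p = 0.0930), and the dex call held in every alternative fit. With dex PSMB10 fell by 0.25 in shNS and by 0.24 in shG9a cells (adjusted p = 0.0148 and 0.0298, edgeR). The call in shNS cells was lost without replicate 2 (0.0753) or 3 (0.238), without dex replicate 1 or 2 or ethanol replicate 2 or 3 of shNS (0.0525 to 0.101) and without the block (0.243). That in shG9a cells was lost without any 1 replicate (0.0604 to 0.330), without dex replicate 2 or 3 or ethanol replicate 1 or 2 of shG9a (0.0572 to 0.215), without a filter (0.0768), without the block (0.292) and in a fit of these groups alone (0.259).

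B2M was lower in shG9a than in shNS cells by −0.30 ± 0.063 with ethanol and −0.25 ± 0.063 with dex (adjusted p = 0.00629 and 0.0147, edgeR). The calls of B2M were lost without replicate 1 (adjusted p = 0.0833 and 0.0777) or 3 (0.300 and 0.293) and without the replicate block (0.171 and 0.180). The ethanol call was also lost without shNS replicate 1 (0.0525), and the dex call without shG9a replicate 1 or 3 or shNS replicate 2 or 3 (0.0607 to 0.0769) and in a fit of these groups alone (0.156). NLRC5 NM_032206 had 3 to 23 reads and was not called.

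Over the list, 0 of the 29 transcripts rose and 4 fell in shG9a cells with ethanol, and 2 rose and 8 fell with dex. These were 13.8% and 34.5% of the list, against 3.73% and 8.80% of all tested transcripts. The median log2 fold changes were −0.07 and −0.18, against −0.02 and 0.00 for all tested transcripts, and without the replicate block 2 and 3 were called instead of 4 and 10. In shGLP cells 1 rose and 0 fell with ethanol and 3 rose and 1 fell with dex, or 3.45% and 13.8% of the list against 3.61% and 5.77% of all transcripts, with medians of 0.06 and 0.07 against 0.01 and 0.03. In shHP1γ cells 0 rose and 1 fell with ethanol and 2 rose and 1 fell with dex, or 3.45% and 10.3% against 2.91% and 4.09%, with medians of 0.06 and −0.06 against 0.02 and 0.03. In the interactions of dex with shG9a, shGLP and shHP1γ, 0 of the 29 were called by edgeR, DESeq2 or limma-voom. There edgeR called 0.0885%, 0.118% and 0.0197% of all transcripts. At an unadjusted p under 0.05 in edgeR, the list had 2, 1 and 1, against 686, 395 and 387 of all 10167.

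**Figure D4:**
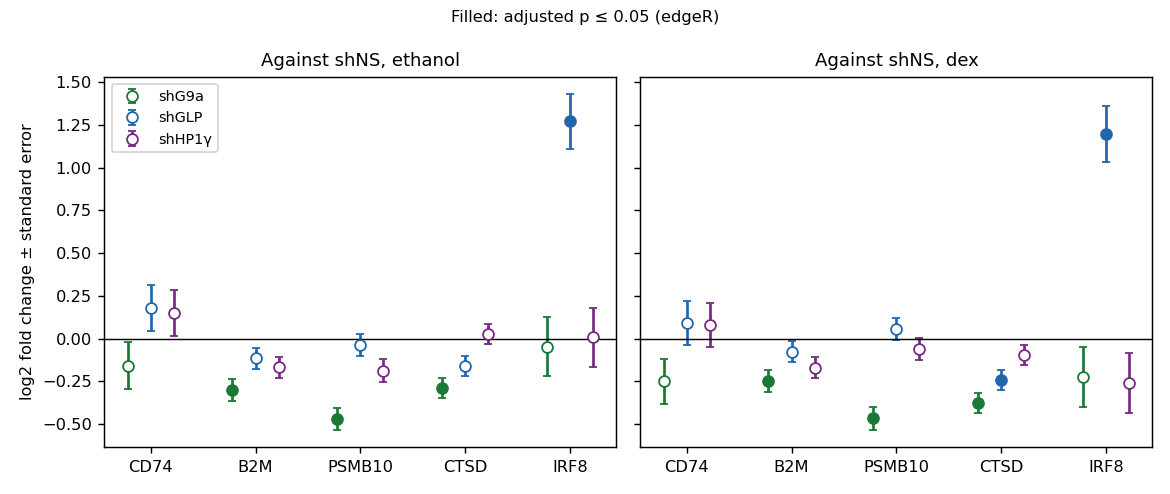
Log2 fold change against shNS (y axis, points) with its standard error (bars) of CD74, B2M, PSMB10, CTSD and IRF8 in ethanol (left) and dex (right), for shG9a, shGLP and shHP1γ cells. Filled points have an adjusted p of at most 0.05 in edgeR. The filled points of B2M and PSMB10 are in shG9a cells, those of IRF8 are in shGLP cells at 1.27 and 1.20, and all points of CD74 are open.

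The transcripts whose levels followed CD74 most closely were looked for among 4666 others with a mean of at least 10 CPM. Over the 24 libraries, Pearson's r of log2(CPM + 1) with CD74 was 0.863 for PSD4 NM_012455, 0.814 for SRGAP2 NM_001300952, 0.776 for LRP10 NM_014045, 0.771 for MICALL1 NM_033386 and 0.766 for TADA2B NM_152293. The median r over all these transcripts was −0.018. Libraries of 1 treatment, population or replicate number share these factors, so the values describe likeness across these libraries only. CTSD had the highest r of the pathway transcripts compared, 0.643.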

How the data were processed

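RNA of 24 Nalm6 libraries was sequenced. Per the study's methods, trimmed reads were mapped by the authors with HISAT2 to GRCh37 (hg19), and GenomicAlignments assigned them to RefSeq genes. HISAT2 and edgeR are also named in the submitters' processing notes, without versions. The deposited table holds raw counts per RefSeq accession: its values are whole numbers and its library totals differ, although it is named for CPM. No source used here gives the strand handling or the release of RefSeq. A further table of the authors' log2 fold changes and FDR values was used only for gene symbols, and none of its values are given. Symbols were found for 63745 of 64519 accessions, 9872 of them in that table and the others in RefSeq's gene table.

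The test was that of edgeR 4.0.16 under R 4.3.3 (upper quartile factors, more than 1 CPM in at least 2 samples, quasi-likelihood F test, Benjamini-Hochberg adjustment, threshold 0.05) with 8 groups and a replicate block in the model, since the protocol in the labels places replicates on different days. In place of the study's correction for unwanted variation, this block was used. Over 84 pairs of libraries with the same number, deviations from group means correlated with r from −0.0025 to 0.639 (median 0.200), and 71 pairs exceeded 0.1. No replicate of a group duplicated another, since the chi-square per degree of freedom of replicate pairs was 3.36 to 39.1. Alternatives were TMM scaling, DESeq2 1.42.0, limma-voom (limma 3.58.1), other filters, no block, accessions summed per gene, only the groups compared, and leaving out replicates or libraries.

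The genes examined and the lists were chosen with earlier results of these data known. Named pathway genes are those of the 12 most changed among genes called within a treatment or population that are reported here, beside a fixed set (RFX5, RFXANK, RFXAP, NLRC5, B2M, PRDM1, PAX5 and the HLA-DQ and HLA-DRB5 genes). The 7 averages over populations or treatments and the filter-free fit of CIITA were added after the data had been seen. Some genes of the lists are not reported here.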

Additional observations from a re-analysis of the deposited data

How the results depend on the processing

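The 13 comparisons within a population or treatment called 0 member transcripts in every alternative fit, and DESeq2 and limma-voom kept the 3 calls of CD74 in the averaged comparisons. With no filter on low counts, the number of member transcripts called was 0 instead of 1 for the mean response to dex, for shG9a against shGLP and for shG9a against shHP1γ. In fits of only the groups compared it was 0 instead of 1 for the latter pair of comparisons. Leaving out replicates or single libraries gave counts from 0 to 1 for each of the 3. Over 412 alternative values of CD74, 26 lost the call, 0 gained one and 11 had the opposite sign with neither value called. Only the 3 called comparisons had a call to lose. In the order above, their calls held in 7, 6 and 6 of 8 alternative fits and in 1 of 3 fits without a replicate each. With single libraries left out, they held in 16 of 24, 9 of 12 and 8 of 12 fits.

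Without the replicate block the adjusted p of CD74 was 0.0403 for the mean response to dex, 0.0267 for shG9a against shGLP and 0.0384 for shG9a against shHP1γ, so that no call of CD74 changed. The block did change the number of called pathway transcripts: without it 0 instead of 1 were called for dex in shG9a cells, 0 instead of 1 for shHP1γ with ethanol, 0 instead of 3 for shHP1γ with dex and 2 instead of 4 for shGLP with dex, and 4 instead of 11 for shG9a against shGLP, beside the counts given above. Over all alternatives the pathway count was 3 to 12 for dex in shNS cells (8 as reported), 0 to 2 for dex in shG9a cells (1), 0 to 4 for dex in shGLP or shHP1γ cells (0), 2 to 5 (4) and 1 to 10 (10) for shG9a with ethanol and dex, and 1 to 4 for shGLP with ethanol (1). In the fit as reported, the 11 transcripts for shG9a against shGLP were 37.9% of the list, against 15.7% of all tested transcripts. Shares of all tested transcripts called in these alternative fits are not given, here or above. The changes in count therefore cannot be read as particular to the list. The causes were not tested.

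Few reads limit these genes: 120 to 202 reads of CD74 per library leave a counting error of 7.04% to 9.13%, and 0 to 12 reads of CIITA carry no call.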
